A study of Mus musculus with 12 samples.

Results

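The matrix metalloproteases (MMPs), the ADAMTS proteases and the tissue inhibitors of metalloproteases (TIMPs) were followed in the fat of WT and Lr11 -/- mice. Members were all probes whose transcript accession maps to a gene symbol that starts with Mmp, Adamts or Timp and a number, which leaves out the ADAMTS-like genes. This gave 45 genes (22 Mmp, 19 Adamts and 4 Timp) of the 20660 named genes on the array, read by 59 probes. Mmp27 has no probe. Each gene was read from its brightest probe. RNA came from subcutaneous white adipose tissue (scWAT) and brown adipose tissue (BAT) of male C57Bl6/J mice aged 12 weeks, all on a high-fat diet that the labels describe both as lasting 4 weeks and as given since weaning. The WT mice were littermates of the Lr11 -/- mice, which lack Lr11 (symbol Sorl1), a sorting receptor of the low-density lipoprotein receptor family. No promoter that limits the deletion to a tissue is named in the labels. Each of the 4 groups of genotype and tissue had 3 arrays, which measure the brightness of labelled copies of the RNA on probes.

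MMPs are secreted or membrane-anchored zinc proteases that cut collagens, gelatin, laminins and other matrix proteins, and they are made as inactive precursors. ADAMTS enzymes are secreted relatives: some trim the ends of procollagen so that fibrils can form, others cut large proteoglycans such as versican and aggrecan. TIMPs bind the active site of MMPs and block it. In fat tissue the matrix around adipocytes is made mostly by stromal cells and is rebuilt when adipocytes grow or when the tissue takes in immune cells. In whole tissue, fewer cells of a type and less RNA per cell cannot be told apart.

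Levels are log2 of the intensity minus the 75th percentile of the same array, so a value of 0 is the level of that percentile and a difference of 1 is a doubling. The lowest signal called well above background lay between -5.13 and -4.28 on this scale, depending on the array. Of the 45 genes, 27 were tested because every array of 1 group or more had them well above background, and 22 of these were so on all 12 arrays. Adamts16 and Mmp9 passed through WT scWAT alone. Another 11 genes were seen on some arrays only, and 7 were never well above background: Mmp1a, Mmp7, Mmp16, Mmp21, Mmp25, Adamts13 and Adamts19. The deleted gene followed the labels, with Sorl1 at 0.91, 0.96 and 1.15 in WT scWAT against -3.57, -3.56 and -2.87 in Lr11 -/- scWAT. In BAT it was at 0.71, 1.21 and 0.11 in WT and at -3.93, -2.45 and -2.48 in Lr11 -/-.

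Several arrays stood apart in ways that touch the results. WT scWAT replicate 2 had a mean of only 1.94 over 4 white adipocyte markers, against 4.36 to 7.14 on the other arrays. It also had the highest mean over 8 macrophage markers (3.30, others -0.29 to 1.79) and over 5 neutrophil markers (2.68, others -2.64 to -0.66). The mean over 10 skeletal muscle markers was 5.04 to 8.10 on WT scWAT replicate 3, Lr11 -/- scWAT replicate 1, WT BAT replicates 1 and 3 and Lr11 -/- BAT replicate 1, and -3.58 to -3.07 on the other 7 arrays. Lr11 -/- scWAT replicate 1 also had an epithelial marker mean of 1.28, against -4.71 to -2.45 elsewhere. The mean over 7 brown adipocyte markers was -0.21, -3.31 and 2.46 in WT scWAT, 3.38, 7.58 and 7.45 in Lr11 -/- scWAT and 6.37 to 7.47 in BAT, so 2 arrays labelled scWAT were as high in these markers as the BAT arrays. The sample titles fall in 2 series: replicate 1 of every group belongs to the first, which was scanned on a slide for each tissue, and replicates 2 and 3 belong to the second, scanned on 1 slide. The labels do not say that the 3 arrays of a group came from separate mice, so p-values measure only the spread between these samples.

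Promoter sequence is shown for the 5 secreted MMPs of 1 gene cluster that were far brighter on a single array than on the rest, and for both procollagen-trimming genes that were lower in Lr11 -/- scWAT. Each line gives the last 130 bases before the annotated gene start, 5′ to 3′, from RefSeq on assembly GRCm38.p6. Capitals mark TGANTCA (N is any base), a loose form of the letters recognized by the AP-1 factors. The pattern reads the same on both strands.
Mmp13, chr9:7272384-7272513, plus strand: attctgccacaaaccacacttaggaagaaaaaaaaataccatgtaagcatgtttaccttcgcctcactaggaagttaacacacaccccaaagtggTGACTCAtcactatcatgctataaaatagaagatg
Mmp12, chr9:7347244-7347373, plus strand: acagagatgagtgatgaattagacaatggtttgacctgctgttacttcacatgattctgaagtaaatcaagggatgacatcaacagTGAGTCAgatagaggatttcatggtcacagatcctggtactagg
Mmp3, chr9:7445692-7445821, plus strand: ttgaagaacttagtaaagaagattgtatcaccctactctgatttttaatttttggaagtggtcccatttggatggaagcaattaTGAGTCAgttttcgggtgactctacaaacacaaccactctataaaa
Mmp10, chr9:7502212-7502341, plus strand: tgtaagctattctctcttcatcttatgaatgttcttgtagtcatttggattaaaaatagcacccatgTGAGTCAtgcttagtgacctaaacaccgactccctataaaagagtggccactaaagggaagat
Mmp8, chr9:7558299-7558428, plus strand: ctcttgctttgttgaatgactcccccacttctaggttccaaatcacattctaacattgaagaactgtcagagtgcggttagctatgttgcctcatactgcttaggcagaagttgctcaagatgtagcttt
Adamts2, chr11:50601955-50602084, plus strand: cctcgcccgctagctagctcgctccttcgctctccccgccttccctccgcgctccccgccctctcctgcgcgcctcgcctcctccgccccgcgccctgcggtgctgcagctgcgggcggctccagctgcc
Adamts14, chr10:61273420-61273549, minus strand: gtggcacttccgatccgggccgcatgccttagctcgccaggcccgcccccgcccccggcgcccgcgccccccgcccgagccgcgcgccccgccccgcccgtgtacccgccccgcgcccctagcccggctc
The first base of the motif lies at -35 in Mmp13, -44 in Mmp12 (in 1 of its 2 annotated windows), -46 in Mmp3 and -63 in Mmp10, counted from the gene start. Of the 45 genes, 31 had such a window, and 8 of them held the motif within the 250 bases before the start: Mmp1a, Mmp1b, Mmp3, Mmp7, Mmp10, Mmp12, Mmp13 and Mmp20. All 8 belong to a run of 10 Mmp genes on chromosome 9 with no other protein-coding gene between them. The match in Mmp20 is TGAATCA, and those in the other genes are TGAGTCA or TGACTCA. Over all genes with a window the motif was found in 7.82% (6.75% of windows). Mmp8, of the same run, did not hold these letters in its window, nor did Adamts2 and Adamts14. Of the 130 bases shown, G and C make up 35.4% in Mmp3, 38.5% in Mmp10 and Mmp13 and 40.8% in Mmp12 and 43.1% in Mmp8, but 77.7% in Adamts2 and 84.6% in Adamts14.

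The first comparison was that of genotypes in scWAT. Adamts2, Mmp23 and Adamts14 were lower in Lr11 -/- scWAT, and no gene of the 3 families was higher past the threshold. These 3 of 27 genes (11.1%) stand against 5.27% of all tested probes called in either direction and 1.87% called lower, at a Benjamini-Hochberg adjusted p under 0.05 from limma. Below 0 were 20 of the 27 differences, and their median was -1.71, against 0.04 over all tested probes. At an unadjusted p under 0.05 there were 12 genes lower and 2 higher, against 10.8% of all tested probes lower and 16.8% higher. Adamts16 and Mmp9, both among the 12, were tested through WT scWAT alone, which favours a lower value in Lr11 -/- scWAT. Of the 22 genes well above background on all 12 arrays, 17 differences were below 0. Their median was -1.72, against 0.07 over all probes so filtered. Over the 27 genes tested without WT scWAT replicate 2 the median was -0.83, against 0.06 over all tested probes. In that fit 19 differences were below 0.

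Both procollagen N-propeptidases tested, enzymes that cut the amino end off fibrillar procollagens, were lower by their brighter probe. Adamts2 was at 5.06, 6.01 and 4.71 in WT scWAT and at 3.73, 2.25 and 2.53 in Lr11 -/- scWAT. The groups did not overlap, and the difference was -2.42 (SE 0.43, limma adjusted p = 0.029), or 5.35-fold. Its other tested probe gave -2.21 (adjusted p = 0.055). Adamts14 was at 1.07, 2.02 and 0.29 in WT scWAT and at 0.21, -0.75 and -1.28 in Lr11 -/- scWAT. Its lowest WT array was close to the highest Lr11 -/- array, and the difference was -1.73 (SE 0.44, adjusted p = 0.049). The second tested Adamts14 probe disagreed, with 0.37 (adjusted p = 0.44), and the mean of both was -0.68 (adjusted p = 0.16). Adamts3, the other gene of this role, was well above background on 2 arrays and was not tested.

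Mmp23 codes for a protease that is held in the membrane by its amino end and lacks the haemopexin domain of most MMPs. It was at 1.26, 2.65 and 1.04 in WT scWAT and at 0.23, -0.54 and -0.40 in Lr11 -/- scWAT. All 3 WT arrays were above all 3 Lr11 -/- arrays, with a difference of -1.89 (SE 0.41, adjusted p = 0.040).

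These 3 calls rest on few arrays. Within the first series, with 1 array of each group, the differences were -1.33 for Adamts2, -1.02 for Mmp23 and -0.86 for Adamts14, and within the second they were -2.97, -2.32 and -2.17. Without WT scWAT replicate 2 they were -2.05, -1.39 and -1.28, with adjusted p of 0.061, 0.081 and 0.13, so that no gene was called. Without Lr11 -/- scWAT replicate 2 the adjusted p were 0.13, 0.16 and 0.17, and without replicate 3 they were 0.13, 0.17 and 0.20. Without any 1 of the 6 BAT arrays, which leaves the differences as they are, they ran from 0.051 to 0.083, and Adamts14 also missed the threshold without WT scWAT replicate 1 (0.0505). With the slide as a block Adamts2 passed (adjusted p = 0.039), and Mmp23 (0.056) and Adamts14 (0.067) did not. In a fit of the scWAT arrays alone the differences were unchanged, but the adjusted p was 0.30 for each gene. No probe was called in that fit. The main fit pools the spread of every group. For Adamts2 the SD was 0.67 in WT and 0.79 in Lr11 -/- scWAT, against 0.37 and 0.21 in BAT. For Mmp23 it was 0.87 and 0.41 against 0.43 and 0.22, and for Adamts14 0.87 and 0.75 against 0.16 and 0.07. The 3 calls thus rest partly on the BAT arrays. Without the 5 arrays with skeletal muscle markers, a setting chosen after the data were seen, the differences were -3.14, -2.42 and -2.56. This setting keeps only replicates 1 and 2 of WT scWAT, so replicate 2 weighs more, and 1 array of WT BAT.

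The gelatinases, which cut denatured collagen and basement membrane collagen, did not pass the test. Mmp2 was at 2.42, 5.20 and 2.59 in WT scWAT and at 2.30, 0.33 and 0.77 in Lr11 -/- scWAT, a difference of -2.27 (SE 0.69, adjusted p = 0.075). The groups did not overlap, but replicate 1 of both was nearly level: the difference was -0.13 in the first series and -3.34 in the second. Mmp14, a membrane-anchored MMP that activates the Mmp2 precursor at the cell surface with Timp2 as a bridge, showed the same split. It was at -0.06, 3.32 and 0.28 in WT and 0.29, -1.84 and -2.21 in Lr11 -/-, a difference of -2.43 (SE 0.84, adjusted p = 0.099), with 0.35 in the first series and -3.82 in the second. Without WT scWAT replicate 2 the difference was -1.37 for Mmp2 and -1.36 for Mmp14. Mmp9, the other gelatinase, was at -3.02, 3.17 and -3.49 in WT and well above background on 1 of 3 arrays in Lr11 -/-. Its difference of -3.63 (SE 1.48, adjusted p = 0.15) was -1.49 without WT scWAT replicate 2.

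The stromelysins, with broad activity on matrix proteins and on precursors of other MMPs, varied widely between arrays of WT scWAT. Mmp3 was at 2.83, 7.57 and 0.26 in WT and at 1.96, 0.32 and 0.62 in Lr11 -/-. The groups overlapped, and the difference of -2.58 (SE 1.38, adjusted p = 0.25) was -0.58 without WT scWAT replicate 2 and was -4.23 (adjusted p = 0.034) without WT scWAT replicate 3. Mmp11, a stromelysin activated within the secretory pathway, was at 1.04, 4.00 and 2.22 in WT and at 1.09, -0.47 and 0.03 in Lr11 -/-. Its difference was -2.20 (SE 0.66, adjusted p = 0.071), with 0.05 in the first series and -3.33 in the second, and -1.41 without WT scWAT replicate 2.

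Among the TIMPs, Timp1 and Timp2 had lower means in Lr11 -/- scWAT and Timp3 and Timp4 higher means, and none passed the test. Timp2, which both blocks MMPs and takes part in activating Mmp2, was at 5.92, 7.95 and 7.25 in WT and at 6.24, 4.52 and 5.15 in Lr11 -/-. The difference was -1.74 (SE 0.51, adjusted p = 0.068), but 0.32 within the first series. Timp1, an inhibitor induced in inflammation and wounding, was at -0.33, 5.03 and 0.20 in WT and at -0.64, -0.54 and -0.93 in Lr11 -/-. The groups did not overlap, yet 1 WT array carried most of the difference of -2.34 (SE 1.14, adjusted p = 0.21), which was -0.64 without it. Timp4, abundant in fat, was at 3.10, -1.09 and 2.82 in WT and at 2.56, 3.09 and 3.36 in Lr11 -/-. The difference of 1.39 (SE 0.86, adjusted p = 0.32) was 0.04 without the same WT array. Timp3, the inhibitor bound to the matrix, was at 4.00, 2.61 and 4.34 in WT and at 4.09, 4.35 and 4.25 in Lr11 -/- (difference 0.58, SE 0.42, adjusted p = 0.39), and its difference was 0.06 without that array.

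The proteoglycan-cutting ADAMTS genes split by direction without a call. Adamts5, the main aggrecan-cutting enzyme of mouse cartilage, was at 1.77, 0.49 and -0.91 in WT and at -1.29, -1.60 and -0.90 in Lr11 -/- (difference -1.71, SE 0.53, adjusted p = 0.076). Adamts4 was at -0.59, 1.79 and -1.96 in WT and at -1.11, -2.78 and -2.70 in Lr11 -/- (difference -1.94, SE 0.86, adjusted p = 0.18). Adamts15 was at 0.71, 2.72 and -0.41 in WT and at 0.68, -0.88 and -1.84 in Lr11 -/- (difference -1.68, SE 0.76, adjusted p = 0.18). In all 3 genes the groups overlapped. Without WT scWAT replicate 2 the difference was -0.92 for Adamts4 and -0.83 for Adamts15, and without WT scWAT replicate 1 it was -1.05 for Adamts5. Adamts8 went the other way, at -1.01, -2.86 and -2.08 in WT and -1.05, -0.62 and -0.24 in Lr11 -/-, a difference of 1.35 (SE 0.40, adjusted p = 0.072). Its second tested probe gave -1.19 (adjusted p = 0.53), so the direction for this gene differs between probes. Adamts9 was at 1.39, -0.09 and -0.19 in WT and at 0.57, 0.98 and 0.59 in Lr11 -/- (difference 0.34, SE 0.37, adjusted p = 0.58). Without WT scWAT replicate 1 the Adamts9 difference was 0.85 (adjusted p = 0.042), without replicate 2 it was 0.11, and without replicate 3 it was 0.06. Adamts18, an ADAMTS with few known substrates, was at -4.18, -3.62 and -3.77 in WT and at -3.36, -4.14 and -3.68 in Lr11 -/- (difference 0.12, SE 0.36, adjusted p = 0.85).

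The other 9 genes tested (Mmp9 is given above) had differences between -2.25 (Adamts16) and 1.15 (Mmp24), with adjusted p from 0.089 to 0.76. Counted over all 27, 7 genes had no overlap between the genotypes in scWAT, 6 lower and 1 higher in Lr11 -/-, against 20.4% of all tested probes. The plot of genotype differences shows that leaving out WT scWAT replicate 2 brought most values closer to 0.

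**Figure D1:**
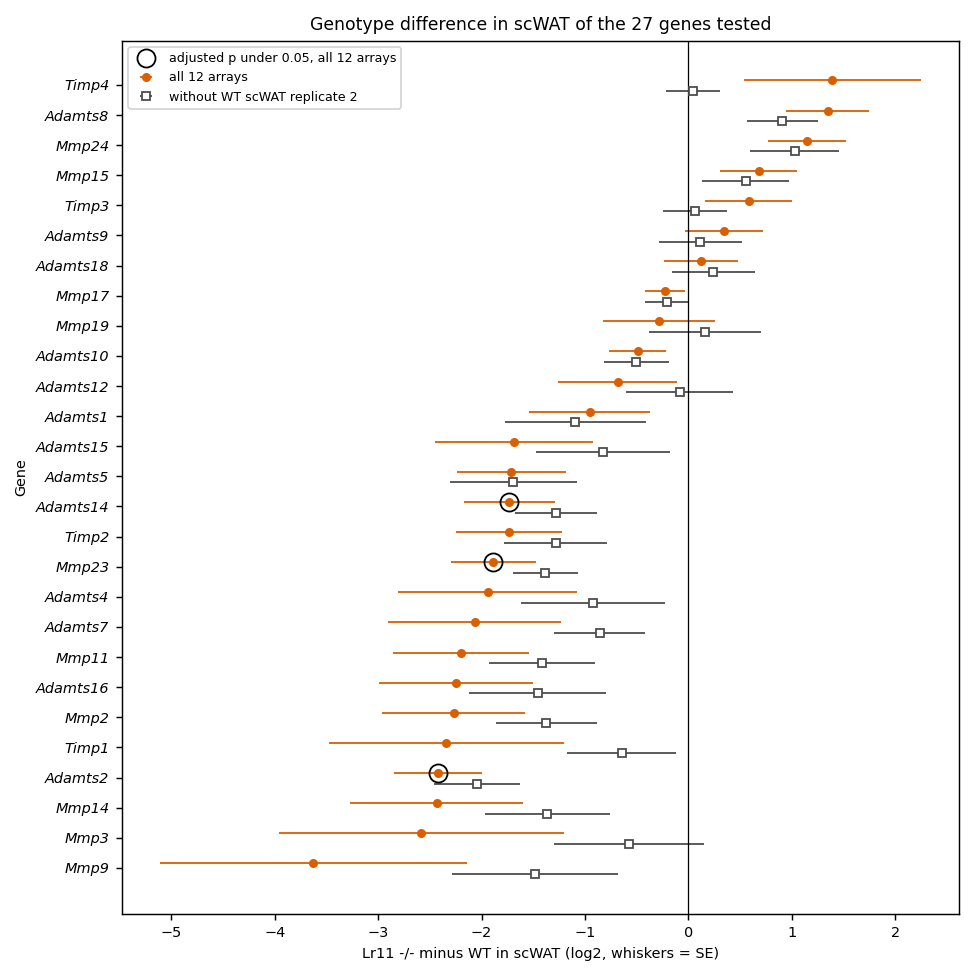
Difference between Lr11 -/- and WT in scWAT (horizontal axis, log2) for the 27 genes tested, from all 12 arrays (filled points) and without WT scWAT replicate 2 (open squares), with whiskers for the SE and circles for an adjusted p under 0.05. Adamts2, Mmp23 and Adamts14 are circled, and Mmp3 moves from -2.58 to -0.58 when that array is left out.

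WT scWAT replicate 2 was set apart in the families as a whole. Mmp13, a collagenase that cuts fibrillar collagen, was at 4.82 on this array and between -6.81 and -2.79 on the other 11. Mmp10 was at 1.06 (others -6.62 to -4.85), and Mmp8, the neutrophil collagenase, was at 0.31 (others -7.20 to -5.25). Mmp12, the macrophage elastase, was at 2.71 (others -6.29 to -2.61). These 4 genes neighbour Mmp3 in the run on chromosome 9, were not tested because no group had them well above background on all 3 arrays, and were singled out after their values were seen. Adamts2 (6.01), Mmp23 (2.65) and Adamts14 (2.02), the genes called lower in Lr11 -/- scWAT, also had their highest value on this array. So did Timp1, Timp2, Mmp2, Mmp3, Mmp9, Mmp11, Mmp14, Mmp19, Adamts4, Adamts7, Adamts12, Adamts15 and Adamts16. Timp3, Timp4, Adamts8 and Mmp24 had their lowest value there. Macrophage and neutrophil markers were highest and white adipocyte markers lowest on the same array, and their part in these values was not tested.

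**Figure D2:**
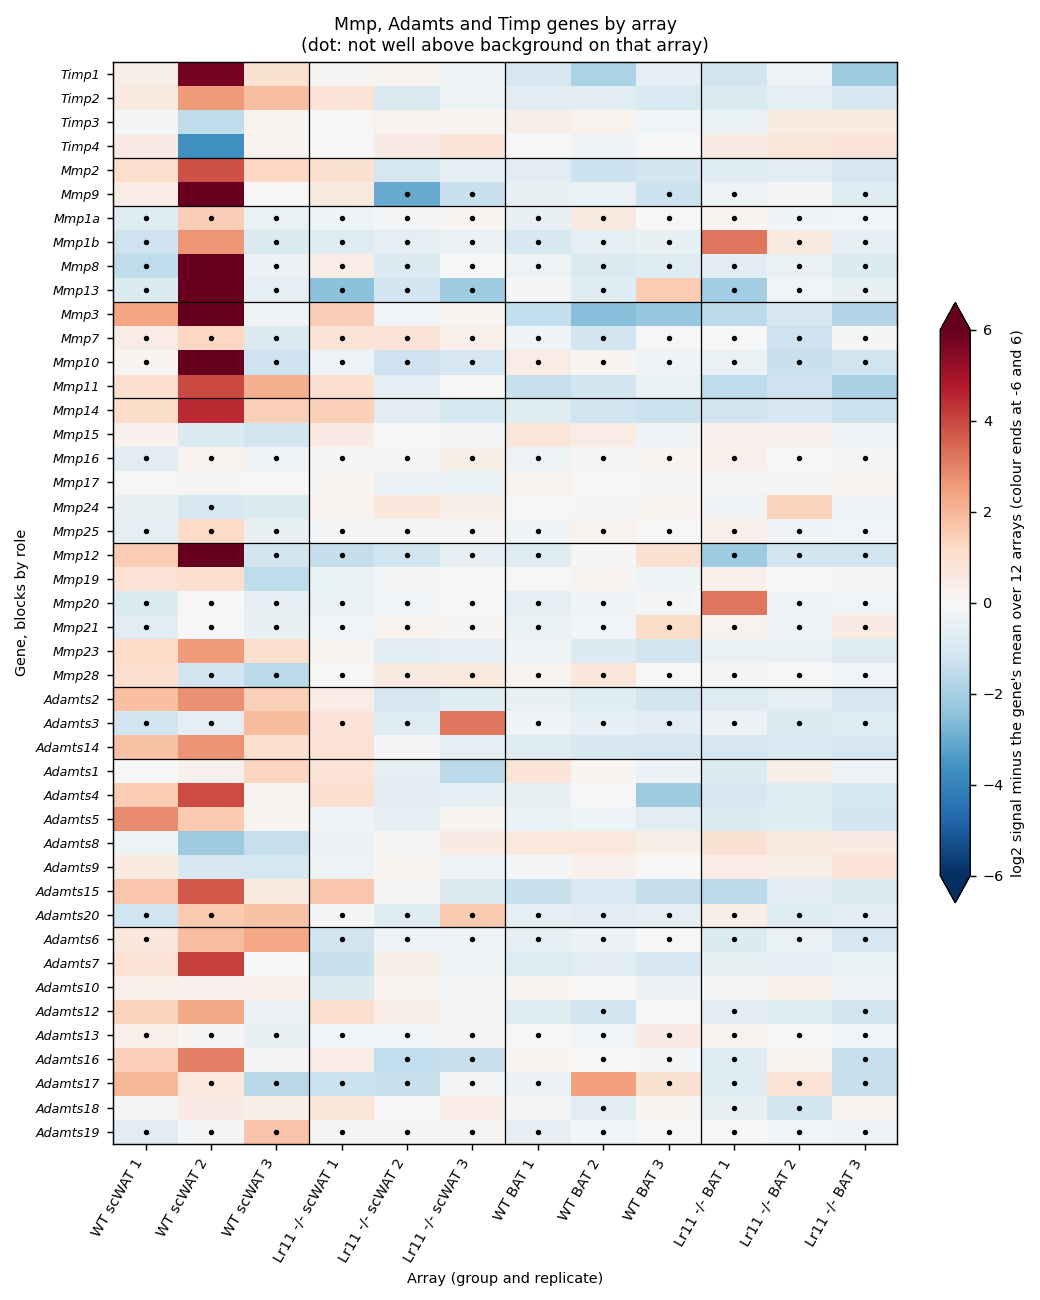
Level of each of the 45 genes on each of the 12 arrays as log2 signal minus the mean of that gene over the arrays (red above, blue below, colours ending at -6 and 6), in blocks by role, with a dot where the gene was not well above background. The column of WT scWAT replicate 2 holds the deepest red, among them Mmp13 at a level of 4.82 where the next array is at -2.79.

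The second comparison was that of genotypes in BAT, where no member was called. All 27 genes had an adjusted p of 1 in limma, against 0.0187% of all tested probes called. At an unadjusted p under 0.05 there were 0 genes, against 2.12% of all tested probes. The median difference was 0.03, with a median size of 0.21 against 0.16 over all tested probes. Timp4 had the largest difference, at 2.62, 2.35 and 2.56 in WT BAT and 3.08, 3.33 and 3.37 in Lr11 -/- BAT (0.75, SE 0.86). All Lr11 -/- values of Timp4 were above all WT values, as they were for Adamts9 with 0.82, 1.13 and 0.91 against 1.34, 1.24 and 1.74 (0.49, SE 0.37). Adamts5 was lower without overlap, at -1.45, -1.33 and -1.75 against -1.88, -1.78 and -2.22 (-0.45, SE 0.53). These and Adamts7 make 4 genes without overlap, against 12.1% of all tested probes. The SE, which pools the spread of all 4 groups, ran from 0.19 (Mmp17) to 1.48 (Mmp9), so changes of the size seen in scWAT could be missed for the more variable genes.

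The BAT levels of the genes lower in Lr11 -/- scWAT were close between genotypes. Adamts2 was at 2.83, 2.57 and 2.11 in WT BAT and 2.52, 2.72 and 2.29 in Lr11 -/- BAT (difference 0.00, SE 0.43). Mmp23 was at -0.17, -0.73 and -1.003 against -0.33, -0.29 and -0.70 (0.20, SE 0.41). Adamts14 was at -1.40, -1.66 and -1.70 against -1.70, -1.58 and -1.70 (-0.07, SE 0.44). Whether the genotype difference itself differs between the fats was tested as an interaction, and no member passed, as with 0% of all tested probes. The smallest adjusted p among members was that of Adamts2, with -2.43 (SE 0.60, adjusted p = 0.36), and 6 members had an unadjusted p under 0.05, against 11% of all tested probes. The genotype difference was thus not shown to differ between the fats.

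The third comparison set BAT against scWAT within WT. Of 27 genes, 12 were lower and 1 (Adamts8) higher in BAT, 48.1% against 24.8% of all tested probes called in either direction, 9.13% called lower and 15.7% called higher. The median difference was -1.96 against 0.07 over all tested probes. Without WT scWAT replicate 2 it was -1.13, against 0.07 over all tested probes. Here too Adamts16 and Mmp9 entered through WT scWAT alone. Adamts12 and Adamts18 entered through the scWAT groups of both genotypes and not through BAT. Such entry favours a lower value in BAT. Over the 22 genes well above background on all 12 arrays the median was -2.33. Of these 22 genes 14 were called, against 25.4% of all probes so filtered. This comparison and that of genotypes in scWAT use the same 3 WT scWAT arrays, so their values are not independent of each other. No overlap between the tissues was seen for 17 genes, against 40.2% of all tested probes.

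Mmp3, Mmp11, Mmp2 and Mmp14 were lower in WT BAT. Mmp3 was at -1.01, -2.05 and -1.79 in WT BAT, all below the lowest WT scWAT value of 0.26, a difference of -5.17 (SE 1.38, adjusted p = 0.023). It was -3.16 without WT scWAT replicate 2. Mmp11 was at -1.30, -1.06 and -0.33 in WT BAT (difference -3.32, SE 0.66, adjusted p = 0.0076). Mmp2, at 0.70, 0.09 and 0.26, was lower by a difference of -3.05 (SE 0.69, adjusted p = 0.012), and Mmp14, at -1.88, -2.36 and -2.43, by -3.40 (SE 0.84, adjusted p = 0.017). For each of these genes the WT BAT arrays lay below all WT scWAT arrays.

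The procollagen-trimming genes and Mmp23 gave the lowest p-values. Adamts2 was lower in WT BAT by a difference of -2.75 (SE 0.43, adjusted p = 0.0038), Adamts14 by -2.71 (SE 0.44, adjusted p = 0.0043) and Mmp23 by -2.28 (SE 0.41, adjusted p = 0.0057). The second Adamts14 probe again went the other way, with 0.96 (adjusted p = 0.037), and the mean of both was -0.87 (adjusted p = 0.0502). Adamts15 was at -2.31, -1.86 and -2.42 in WT BAT (difference -3.20, SE 0.76, adjusted p = 0.015), Adamts5 differed by -1.96 (SE 0.53, adjusted p = 0.023), and Adamts4, at -2.53, -2.14 and -4.25, by -2.72 (SE 0.86, adjusted p = 0.043). Adamts8 was higher in WT BAT, at -0.06, -0.08 and -0.34, a difference of 1.82 (SE 0.40, adjusted p = 0.012). Its second probe gave -2.36 (adjusted p = 0.15), and the mean of both probes -0.27, so the call rests on the brighter probe.

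Timp2 and Timp1 were lower in WT BAT as well. Timp2 was at 4.75, 4.79 and 4.48 in WT BAT (difference -2.37, SE 0.51, adjusted p = 0.010). Timp1 was at -1.71, -2.60 and -1.25 (difference -3.49, SE 1.14, adjusted p = 0.047), and its difference was -1.79 without WT scWAT replicate 2. Timp3 and Timp4 did not pass, with 0.62 (SE 0.42, adjusted p = 0.29) for Timp3, at 4.49, 4.33 and 3.98, and 0.90 (SE 0.86, adjusted p = 0.46) for Timp4. Without WT scWAT replicate 2 the difference was 0.10 for Timp3 and -0.45 for Timp4. Adamts9 did not pass (0.58, adjusted p = 0.27) but did without WT scWAT replicate 1 (1.09, adjusted p = 0.0098). Adamts2, Adamts14, Mmp23, Mmp11, Timp2 and Adamts8 passed with each of the 12 arrays left out in turn, whereas Timp1 passed in 3 of these 12 fits (those without a WT scWAT array, adjusted p = 0.018 to 0.048, against 0.055 to 0.15 in the others) and Adamts4 in 2 (0.012 with WT scWAT replicate 3 dropped and 0.038 with Lr11 -/- scWAT replicate 1 dropped, against 0.054 to 0.13 in the others). Mmp3 lost its call without any of the 3 WT BAT arrays (adjusted p = 0.055 to 0.079), Adamts5 without any of these or WT scWAT replicate 2 (0.058 to 0.066), Mmp2 (0.053) and Mmp14 (0.062) without WT BAT replicate 2 and Adamts15 without WT BAT replicate 1 (0.051). The Adamts4 difference was -1.70 without WT scWAT replicate 2, and that of Adamts5 -1.30 without WT scWAT replicate 1. With the slide as a block Mmp3, Mmp14, Adamts15, Adamts5, Adamts4 and Timp1 did not pass (adjusted p = 0.063 to 0.12).

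**Figure D3:**
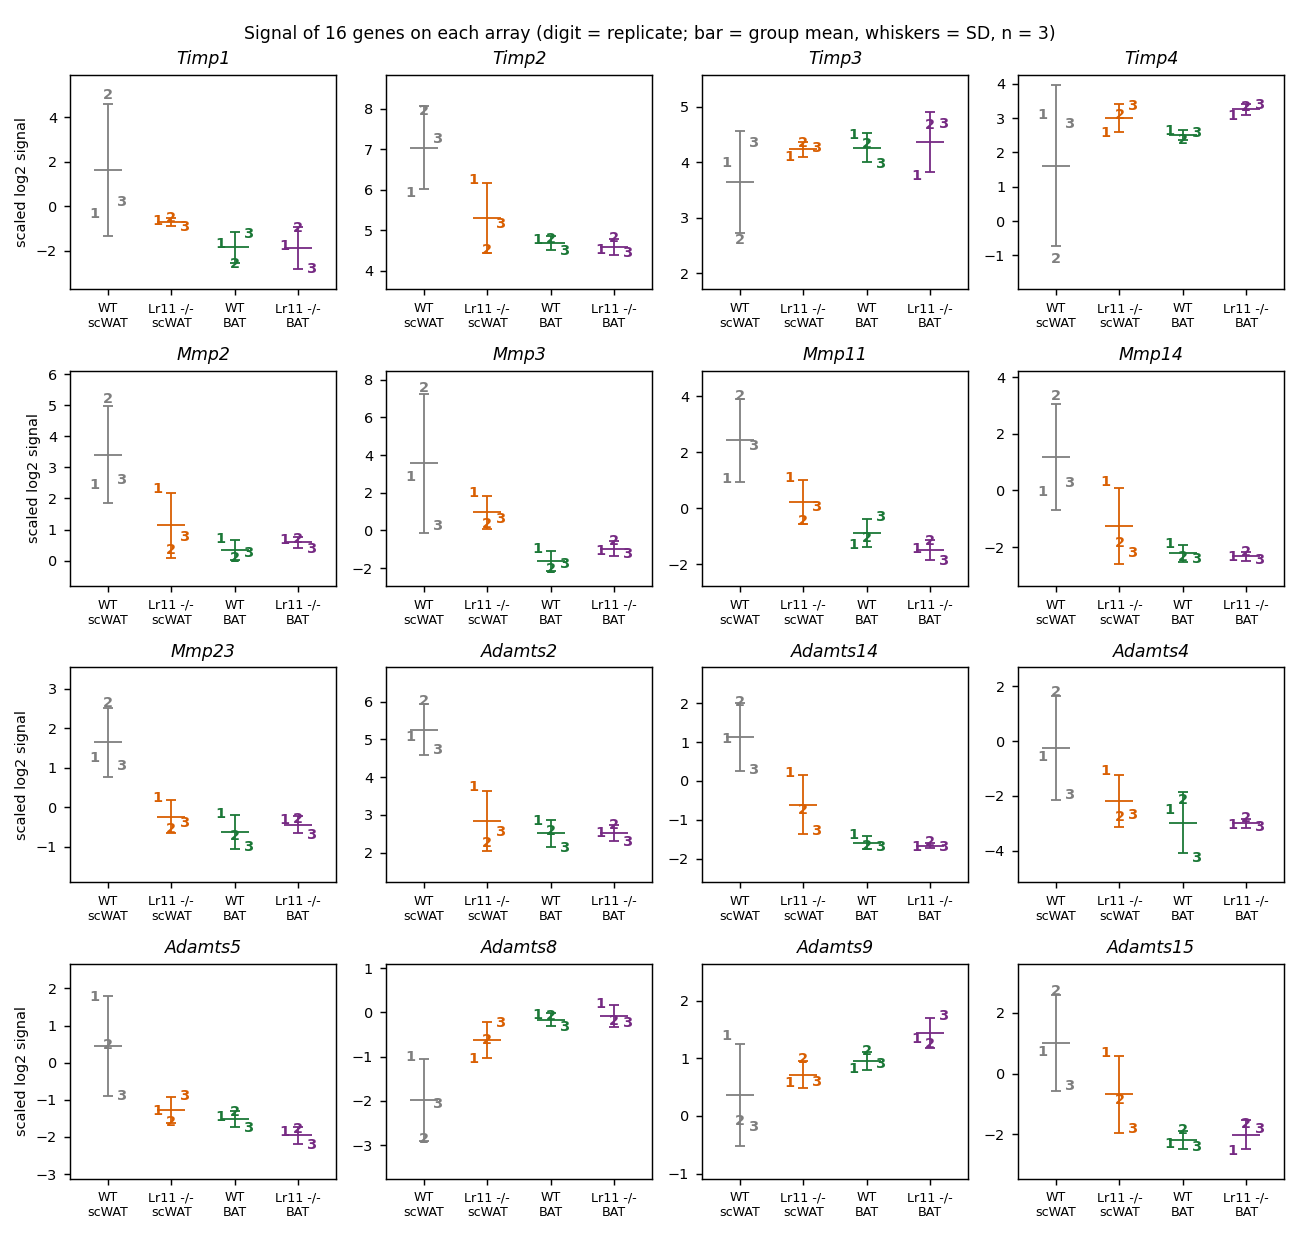
Scaled log2 signal (vertical axis, its own range in each panel) of 16 genes in the 4 groups, with a digit for each replicate, a bar for the group mean and whiskers for the SD (n = 3). In most panels WT scWAT is highest and widest, and replicate 2 is the extreme value of WT scWAT for Timp1 (5.03), Timp4 (-1.09) and Mmp3 (7.57).

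Between the tissues of Lr11 -/- mice no member was called, against 0.0405% of all tested probes. The median difference was -0.20, and 4 genes had an unadjusted p under 0.05, against 9% of all tested probes. Lr11 -/- BAT was lower without overlap for Mmp11, at -1.47, -1.17 and -1.88 (difference -1.72, SE 0.66, adjusted p = 0.47), and for Adamts14 (difference -1.05, SE 0.44, adjusted p = 0.52). Adamts2 differed by -0.33 (SE 0.43) and Mmp2 by -0.55 (SE 0.69). No overlap between the tissues was found for 8 genes, against 23.2% of all tested probes. The difference between the 2 tissue contrasts is the same test as the interaction above with the sign turned, and it was not passed by any member.

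**Figure D4:**
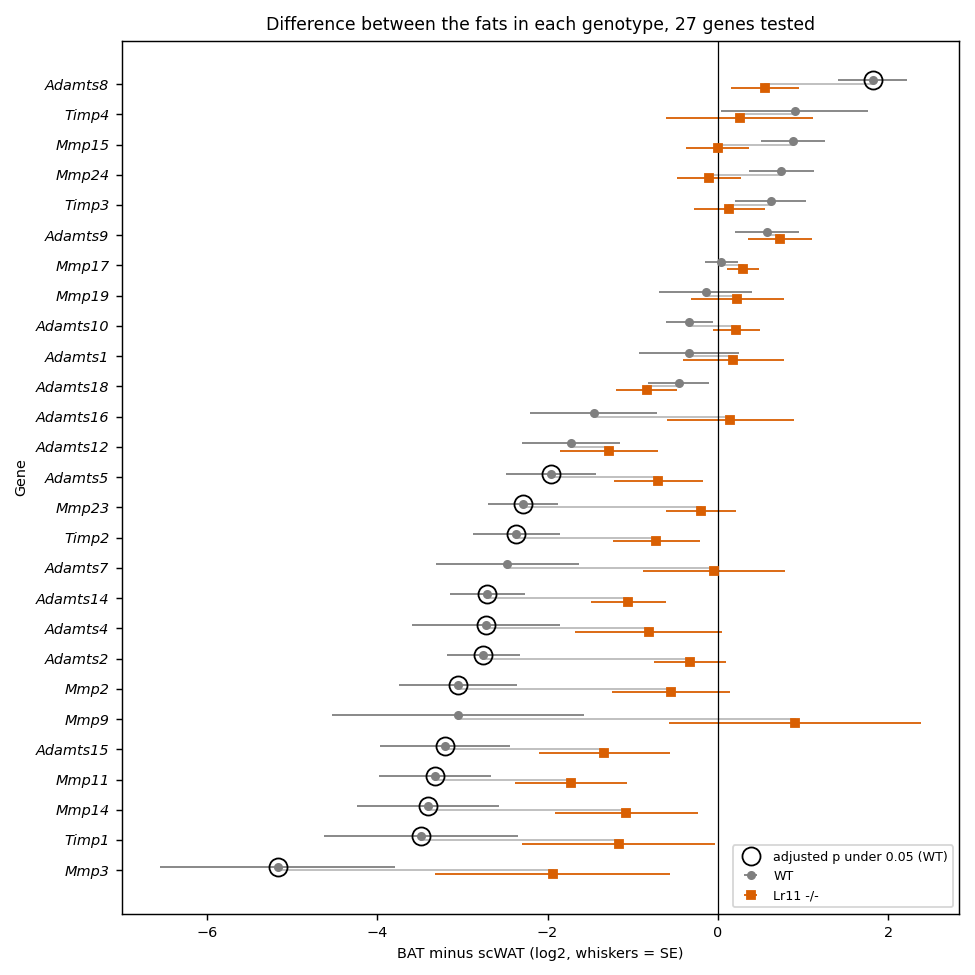
Difference between BAT and scWAT (horizontal axis, log2, whiskers for the SE) of the 27 genes tested, in WT (circles) and in Lr11 -/- (squares), with rings for an adjusted p under 0.05. The WT values of Mmp3 (-5.17) and Adamts2 (-2.75) have Lr11 -/- counterparts of -1.94 and -0.33.

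Genes that act around these proteases were counted from lists. Of 12 tested regulators (activators, inhibitors and clearance receptors), 2 were lower in Lr11 -/- scWAT and 0 higher, with a median of -0.86: the plasminogen activators Plau (-2.26, SE 0.44, adjusted p = 0.034) and Plat (-1.85, SE 0.43, adjusted p = 0.044). Of 14 collagen genes all differences were below 0 (median -1.79), and 1 passed, Col6a1 (-2.002, SE 0.32, adjusted p = 0.022). Of 18 proteoglycans and glycoproteins 2 were lower, the collagen-binding proteoglycans Lum (-2.25, SE 0.36, adjusted p = 0.021) and Dcn (-1.64, SE 0.40, adjusted p = 0.045). Over all tested probes the median was 0.04, and 1.87% were called lower (5.27% in either direction). Of 8 ADAM sheddases, the membrane-anchored relatives, only Adam15 was lower (-0.96, SE 0.24, adjusted p = 0.048). Of Adamtsl1, Adamtsl2, Adamtsl4 and papilin, the 4 tested genes of the ADAMTS-like and papilin list, 0 passed. The calls of these listed genes were not followed gene by gene with arrays left out. The share of all tested probes called was 0.764% without WT scWAT replicate 2 and 0.427% to 0.527% without any 1 BAT array.

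In WT BAT against WT scWAT, 12 of the 14 collagens and 12 of the 18 proteoglycans and glycoproteins were lower and 0 higher, with medians of -2.45 and -1.84. Of all tested probes 9.13% were called lower and 15.7% higher in this comparison. Col1a1, a chain of the main fibrillar collagen, differed by -3.76 (SE 0.63, adjusted p = 0.0046). Of the 8 ADAM sheddases 3 were lower, as were 3 of the 4 tested genes of the ADAMTS-like and papilin list. Of the 12 regulators 4 were lower and 2 higher. The higher ones were Pcsk6, a proprotein convertase (1.99, SE 0.26, adjusted p = 0.0025), and Bsg, an inducer of MMPs on the cell surface (1.07, SE 0.31, adjusted p = 0.030). In BAT none of these lists had a call between genotypes.

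Cell type markers were counted in the same comparisons. Of 7 fibroblast and preadipocyte markers 1 was lower in Lr11 -/- scWAT, with 0 of the 7 differences above 0 and a median of -1.43, and their mean level was 2.79, 3.80 and 2.96 in WT scWAT, 2.70, 0.78 and 1.70 in Lr11 -/- scWAT and 1.07 to 1.68 in BAT. Of 8 macrophage markers 0 passed in Lr11 -/- scWAT (median -0.79) and 5 were lower in WT BAT than in WT scWAT (median -1.82), and of the 3 neutrophil markers tested 1 was lower in the first of these comparisons, and in the second 1 was lower and 1 higher. Of 7 brown adipocyte markers 4 were higher in Lr11 -/- scWAT than in WT scWAT and 6 in WT BAT than in WT scWAT. Between the WT tissues 4 of the 7 fibroblast markers and 2 of 4 smooth muscle markers were lower in BAT, and 1 of 5 endothelial and 1 of 4 white adipocyte markers was higher. The tested markers of skeletal muscle (5), epithelium (3) and B lymphocytes (4) had 0 calls in these comparisons. Of all tested probes 5.27% were called between genotypes in scWAT (1.87% lower). Between the WT tissues 24.8% were called (9.13% lower and 15.7% higher in BAT). The part of these cell types in the protease values was not tested.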

How the data were processed

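RNA of scWAT and BAT was hybridized to 12 Agilent mouse arrays of 1 colour, 3 for each genotype and tissue, grouped by the source labels. Replicate numbers were given in accession order and are names only. The authors deposited intensity values from Feature Extraction 10.10.1.1, with the background subtracted on each array and without scaling between arrays. The series table holds the same numbers (largest difference 0) and was not used further. Outlier spots (128 to 181 per array) were left out, spots of a probe were averaged after log2, and the 75th percentile of the intensity (374 to 632) was subtracted. No spot was saturated, and precision is limited by the number of arrays and by how far signals exceed background. Of 55681 probes 32105 were tested, those that the software found well above background on every array of a group. A RefSeq accession was given for 28685 probes, and 27235 of them matched a symbol in a gene table of assembly GRCm38.p6.

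All 12 arrays entered 1 limma fit (lmFit and eBayes, limma 3.58.1, R 4.3.3) with 4 group means, and p-values were Benjamini-Hochberg adjusted over all tested probes. The steps were tested on simulated data with the same spread in every group, so unequal spread between groups was not tested. Genes named in full are the TIMPs, those past the threshold in any contrast and the 3 with the smallest p in each. The members and lists were chosen with earlier results of these data known. The lists were metalloprotease regulators, ADAM sheddases, ADAMTS-like genes with papilin, collagens, and proteoglycans and glycoproteins. Marker lists covered macrophages, neutrophils, fibroblasts, skeletal muscle, epithelium, B lymphocytes, endothelium, smooth muscle and white and brown adipocytes. One gene of the regulator list is not reported here and was left out of its counts. Alternatives were other scalings, backgrounds, filters, blocks, weights, array subsets and all probes of a gene, and each array left out in turn. Figures were drawn in matplotlib.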

Additional observations from a re-analysis of the deposited data

How the results depend on the processing

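The count of 3 genes called in Lr11 -/- scWAT depended on the fit. So did the share of all tested probes called, which was 5.27% in the main fit and is given in brackets for the others. The count was 0 with no filter on dim probes (0.271%) or with only the arrays compared (0%). It was 1 with the slide as a block (2.84%), 8 with array weights (11.4%) and 9 with the second title series alone (21.7%). Leaving out each array in turn gave 0 to 11. In scWAT it was 11 when WT replicate 3 was dropped (14.6%). It was 9 when replicate 1 of WT (13.8%) or of Lr11 -/- (19.6%) was dropped. It was 0 when replicate 2 of WT (0.764%) or of Lr11 -/- (0.0963%) or Lr11 -/- replicate 3 (0.0525%) was dropped. For each of the 6 BAT arrays it was 0 as well (0.427% to 0.527%). The slide block left Adamts2 alone, and the mean of all its probes took Adamts14 from -1.73 to -0.68 in scWAT (adjusted p = 0.16) and from -2.71 to -0.87 between the WT tissues (0.0502). Adamts14 alone was also lost with quantile normalization, median scaling, no scaling, normexp background or the title series as a block (adjusted p = 0.054 to 0.058). The next settings were added after the data were seen. Without both WT scWAT replicate 2 and Lr11 -/- scWAT replicate 1 the count was 9 (18.6%). In that setting 5 genes passed the interaction (5.99%). For each, the Lr11 -/- minus WT difference was lower in scWAT than in BAT. Without the arrays with skeletal muscle markers the median difference in scWAT was -2.38. That fit leaves 1 WT BAT array, so its count is not given.

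For BAT minus scWAT in WT the count of 13 (24.8% of all tested probes) was 7 with the slide as a block (12.4%). It was also 7 with only the arrays compared (12.7%). Leave-one-out fits gave 7 (9.51%, without WT BAT replicate 2) to 18 (27.9%, without WT scWAT replicate 3). Without the arrays with skeletal muscle markers the median difference was -2.45. No count is given for that fit, because it leaves 1 WT BAT array. The interaction had 3 genes with array weights (3.45% of all tested probes). With an array left out it had 0 to 1 (1 without Lr11 -/- scWAT replicate 1, where the share was 3.77%). The count for BAT minus scWAT in Lr11 -/- was 1 with array weights (5.74%). For genotype in BAT it was 0 in every setting run. Of the 16 called differences of named genes 1 reversed, Adamts8 in BAT minus scWAT in WT, at -0.27 with the mean of all its probes. Of the 69 that were not called, 21 changed sign in at least 1 setting, among them Timp4 between the WT tissues (-0.45 to 1.64). Median scaling moved the median of all tested probes from 0.04 to 0.17 in scWAT and from 0.07 to 0.20 between the WT tissues, and no scaling moved them to -0.20 and -0.25, while members kept medians of -1.82 and -2.27 between the WT tissues. The causes were not tested. Genes dim on most arrays, such as Mmp13, have no test here. No paired analysis was possible because the labels give no replicate numbers.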
